A study of Mus musculus with 6 samples.

Results

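Fibroblast growth factors (FGFs) and their receptors were followed in RNA-seq of mouse embryonic fibroblasts (MEFs) with and without the ubiquitin ligase gene Rnf40. Genes were taken by symbol, and 10 of the 29955 genes in the deposited table were selected, namely the 6 ligand genes Fgf1, Fgf2, Fgf5, Fgf7, Fgf10 and Fgf18 and the 4 receptor genes Fgfr1, Fgfr2, Fgfr3 and Fgfrl1. The table holds 27 genes with an FGF or FGF receptor symbol in all, among them the intracellular Fgf11, Fgf12, Fgf13 and Fgf14. The 17 that were not selected are described further on as a group. RNF40 works with RNF20 as the ligase that attaches ubiquitin to histone H2B, and the study compared MEFs with and without it to learn how gene expression depends on this mark.

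Both groups were MEFs at passage 3, fibroblasts grown out of mid-gestation mouse embryos, with 3 libraries each. The Rnf40-/- MEFs came from Rosa26-CreERT2, Rnf40loxP/loxP embryos, in which a tamoxifen-dependent Cre recombinase present in all cells removes exons 3 and 4 of Rnf40. They had received 250 nM 4-hydroxytamoxifen (4-OHT) for 5 days and were then kept for 3 days without it. The comparison group is labelled Rnf40+/+, and neither the labels nor the methods state whether its cells carried the Cre transgene or received 4-OHT, so the deletion and the treatment cannot be told apart. Nothing states that the replicates came from separate embryos, and p-values then measure only the spread between these samples. Reads on genes numbered 17053436, 20781071 and 26344170 in Rnf40+/+ libraries and 18741606, 18115481 and 20495627 in Rnf40-/- libraries. Values are normalized counts, that is, reads on a gene divided by the size factor of the library, and 3 reads, taken as the limit of detection, corresponded to normalized counts between 2.40 and 3.58.

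FGFs are secreted proteins that bind receptor tyrosine kinases together with heparan sulfate chains on the cell surface. A bound receptor phosphorylates the docking protein FRS2, which recruits GRB2, SHP2 and SOS and passes the signal to RAS and the ERK kinases, and the pathway then induces its own inhibitors of the Sprouty, Spred and DUSP families. In embryos, mesenchymal cells such as fibroblasts secrete FGF7 and FGF10, which act on an epithelial splice form of FGFR2 and drive the growth of lung, limb, skin and gland buds, while the mesenchyme itself mostly carries FGFR1.

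The label of the Rnf40-/- libraries was first checked on the targeted gene. Rnf40 had normalized counts of 1278, 1195 and 1096 in Rnf40+/+ libraries and of 439, 519 and 487 in Rnf40-/- libraries. The groups did not overlap, and the mean of the Rnf40-/- libraries was 40.5% of the Rnf40+/+ mean (log2 fold change -1.30 ± 0.09 SE, adjusted p = 4.25e-07 by limma). The table gives 1 value for the whole gene, so the deleted exons cannot be seen apart from the remaining ones. Rnf20, the partner gene, was higher in all 3 Rnf40-/- libraries (1611 ± 171 against 2108 ± 24.7, SD, n = 3; log2 fold change 0.39 ± 0.08 SE, adjusted p = 0.00152).

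The cell type label was checked on markers. All 10 fibroblast markers (Col1a1, Col1a2, Col3a1, Vim, Fn1, Pdgfra, Pdgfrb, Thy1, Prrx1 and Twist1) were detected in every library, with Vim or Fn1 the most abundant per transcript length in each library. All 10 were also lower in Rnf40-/- MEFs, with a median log2 fold change of -0.73, and their summed normalized counts were 678862, 714576 and 748964 in Rnf40+/+ against 408359, 405474 and 406864 in Rnf40-/- libraries. The steepest of these falls was that of the collagen gene Col1a2 (log2 fold change -2.26 ± 0.09 SE, adjusted p = 7.63e-09), and Vim was nearest to the threshold (log2 fold change -0.26 ± 0.10 SE, adjusted p = 0.0483). Vim passed the test with only 1 of the 6 libraries left out, Rnf40+/+ replicate 3 (-0.34, adjusted p = 0.00553, range 0.00553 to 0.176 over the libraries left out), and Twist1 no longer passed without Rnf40-/- replicate 1 or 3 (adjusted p = 0.0596 and 0.0875), so that 8 of the 10 falls held with each library left out. Fewer cells of a type and less RNA per cell cannot be told apart in such bulk samples.

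Markers of other cell types were present at lower summed levels and partly moved with genotype. Of 4 endothelial markers, Pecam1, Cdh5 and Kdr rose and Tek did not pass the test except without Rnf40+/+ replicate 1 (log2 fold change 2.09, adjusted p = 1.67e-04, range 1.67e-04 to 0.598 over the libraries left out), and their summed normalized counts were 143, 46.9 and 53.5 in Rnf40+/+ and 178, 265 and 173 in Rnf40-/- libraries, with Kdr or Tek the most abundant in each library. Of 5 macrophage markers, Ptprc rose, Lyz2 fell and Csf1r, Adgre1 and Cd68 did not pass the test, with sums of 4765, 5377 and 8672 against 3296, 3069 and 3347 that consisted mostly of Lyz2. Of 3 chondrocyte markers, Sox9 and Col2a1 fell, with sums of 1650.4, 1406 and 1227 against 492, 578 and 564 that were mostly Col2a1, and Acan had too few reads to be tested. Of 4 skeletal muscle markers, Des was the only one tested and fell, Myod1 was at 0 in all 6 libraries, and the sums were 1369.8, 138 and 124 against 43.8, 28.2 and 48.2, mostly Actc1 in Rnf40+/+ replicate 1 and Des in the other libraries. Of 4 neural markers 2 were tested and 0 passed in limma (0 at an unadjusted p under 0.05, and 0 in DESeq2 or edgeR), with sums of 2889, 1492 and 1578 against 1498, 1507 and 1678 that were mostly Tubb3, and Gfap was at 0 in all Rnf40-/- libraries. Of 5 epithelial markers 2 were tested and 0 passed by any of these counts, with sums of 93.2, 30.6 and 53.5 against 54.0, 40.7 and 34.9, and Krt5, Krt8 or Krt18 the most abundant in each library. The part of these cell type markers in the FGF results was not tested.

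A pair of Rnf40+/+ libraries stood apart. Replicate 1 held more RNA of the muscle genes Actc1 and Des, with normalized counts of 937 for Actc1 against 10.2 and 7.99 in the other Rnf40+/+ libraries, and of 431 for Des against 126 and 114. Replicate 3, the deepest library, differed from replicates 1 and 2 by a chi-square per gene of 26.9 and 24.1, compared with 7.87 between those 2. The Rnf40-/- libraries showed a smaller difference of the same kind. Their replicate 3, the deepest of that group, differed from replicates 1 and 2 by 12.4 and 9.14, compared with 5.04 between those 2. The part of depth in these values was not tested.

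Of the 10 FGF genes, 2 were higher (Fgf1 and Fgf18) and 6 were lower (Fgf2, Fgf7, Fgf10, Fgfr1, Fgfr2 and Fgfrl1) in Rnf40-/- MEFs at an adjusted p under 0.05 in limma, and Fgf5 and Fgfr3 did not pass the test. All 10 had enough reads to be tested. Over all 16378 genes tested, 23.3% were higher and 24.1% were lower, so that the share of higher FGF genes was near the background and the share of lower ones was above it. The members and the lists below were chosen with earlier results of these data known. Their shares therefore describe the chosen genes only, and of 7 other FGF genes tested 0 were lower. The same 2 and 6 genes were those whose libraries did not overlap between genotypes, against 27.8% of all genes with every Rnf40-/- library above and 28.7% with every Rnf40-/- library below the Rnf40+/+ libraries. With a log2 fold change beyond 1 asked for as well, 1 member was higher (Fgf18) and 2 were lower (Fgf2 and Fgf7), against 5.13% and 5.72% of all genes. Over the 10 members the log2 fold change had a median of -0.30, compared with -0.0035 over all genes tested.

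**Figure D1:**
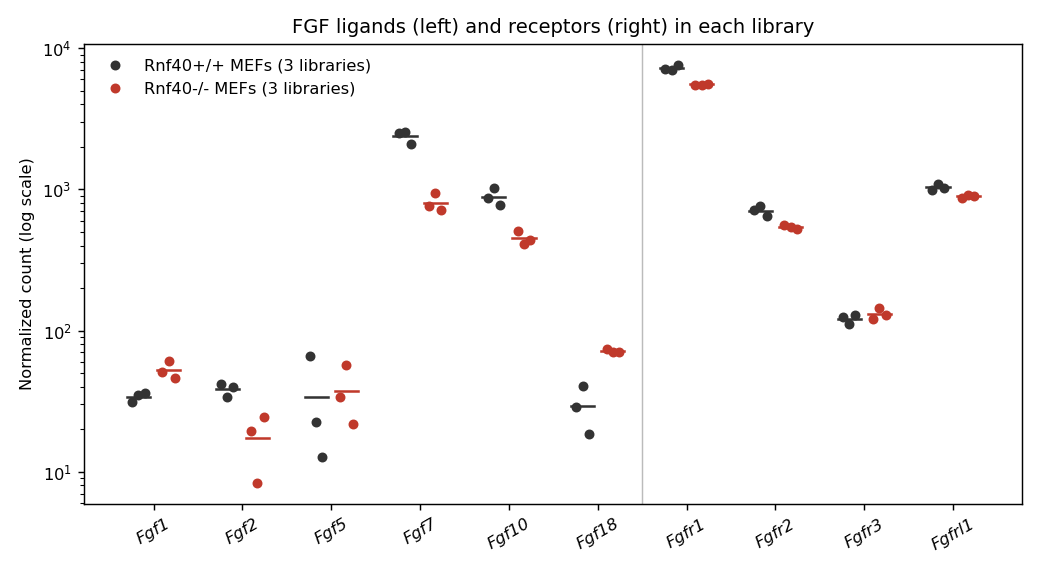
Normalized counts on a log axis of the 6 FGF ligand genes and the 4 FGF receptor genes in the 3 Rnf40+/+ (black) and 3 Rnf40-/- (red) libraries, each point a library and each bar a group mean. Fgf7 and Fgf10 lie lower in all Rnf40-/- libraries and Fgf18 lies higher in all of them, while the points of Fgf5 and Fgfr3 overlap.

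The ligands made by mesenchyme for epithelium showed the clearest falls. Fgf7, also known as keratinocyte growth factor, is a mitogen for epithelial cells. Its normalized counts were 2499.5, 2564 and 2103 in Rnf40+/+ libraries and 768, 934 and 717 in Rnf40-/- libraries. Every Rnf40-/- library lay far below the lowest Rnf40+/+ library, and the mean fell from 2389 ± 249.7 to 806 ± 114 (SD, n = 3), that is, to 33.8% (log2 fold change -1.57 ± 0.10 SE, adjusted p = 3.34e-07 by limma). By log2 fold change the fall had rank 370 among the 16378 genes tested. Without any 1 library the log2 fold change of Fgf7 lay between -1.68 and -1.49. The gene is on chromosome 2 of the mm9 assembly (chr2:125860394-125916921, plus strand, 4 exons).

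Fgf10 encodes a ligand of the same subfamily as FGF7, and limbs and lungs do not form without it. It had normalized counts of 868, 1027 and 768 in Rnf40+/+ and of 507, 412 and 436 in Rnf40-/- libraries. These groups did not overlap either, and the mean of the Rnf40-/- libraries was 50.9% of the Rnf40+/+ mean (888 ± 130.4 against 452 ± 49.1, SD, n = 3; log2 fold change -0.97 ± 0.11 SE, adjusted p = 3.01e-05 by limma). Fgf10 is at chr13:119503506-119580922 on the plus strand with 3 exons, and 69 of its exonic bases overlap the opposite-strand transcript Gm16263, which has no row in the table. Within a library the log2 ratio of Fgf7 to Fgf10 was 1.53, 1.32 and 1.45 in Rnf40+/+ and 0.60, 1.18 and 0.72 in Rnf40-/- MEFs. The ratio was thus lower in all 3 Rnf40-/- libraries, with replicate 2 nearest to the Rnf40+/+ values (exact 2-sided permutation p = 0.1, the smallest that 3 against 3 libraries allow, and 0.175 when adjusted over 14 such comparisons of shares, totals and ratios).

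Fgf18 moved the other way. FGF18 acts on cartilage and bone, where it regulates chondrocyte growth through FGFR3. Fgf18 had normalized counts of 28.7, 40.8 and 18.4 in Rnf40+/+ and of 73.4, 69.9 and 70.8 in Rnf40-/- libraries. The 3 Rnf40-/- values lay close together and above all Rnf40+/+ values, and the mean was 2.44-fold higher (29.3 ± 11.2 against 71.4 ± 1.81, SD, n = 3; log2 fold change 1.33 ± 0.28 SE, adjusted p = 0.00218 by limma). This rise rested on few reads, with 24, 40 and 23 reads in the Rnf40+/+ and 72, 67 and 75 in Rnf40-/- libraries. It passed the test without each of the 6 libraries in turn, with log2 fold changes between 1.04 and 1.59. Fgf18 is at chr11:33017430-33047400 on the minus strand with 5 exons.

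The remaining ligands were all low. Fgf2 encodes basic FGF, a mitogen for fibroblasts that lacks a signal peptide and leaves cells by an unusual route. Its normalized counts were 41.8, 33.7 and 39.9 in Rnf40+/+ and 19.4, 8.35 and 24.5 in Rnf40-/- libraries. All Rnf40-/- values were lower, with replicate 2 the lowest at 8 reads, and the mean was 45.3% of that in Rnf40+/+ (log2 fold change -1.21 ± 0.38 SE, adjusted p = 0.0191 by limma). Without Rnf40-/- replicate 2 the log2 fold change of Fgf2 was -0.78 and the adjusted p rose to 0.0643, while the adjusted p without each other library lay between 0.0126 and 0.0434. Fgf2 (chr3:37247268-37304299, plus strand, 4 exons) shares 242 exonic bases with Nudt6 on the opposite strand, and as the use of strand in counting is not given, reads of the 2 genes there cannot be told apart. Nudt6 itself had normalized counts of 165, 139 and 137 and of 154, 130.5 and 131, which overlapped between genotypes (log2 fold change -0.08 ± 0.15 SE, adjusted p = 0.677).

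Fgf1, which encodes acidic FGF and binds all FGF receptors, had normalized counts of 31.1, 34.7 and 35.9 in Rnf40+/+ and of 51.0, 60.5 and 46.3 in Rnf40-/- libraries. All Rnf40-/- libraries were above all Rnf40+/+ libraries, by 1.55-fold on average (log2 fold change 0.61 ± 0.23 SE, adjusted p = 0.0441 by limma). This call was close to the threshold and was lost without any 1 of the 6 libraries, with adjusted p between 0.0566 and 0.156 and log2 fold changes between 0.51 and 0.70. It was also lost with the Wald test of DESeq2 (adjusted p = 0.111) and without a gene filter in limma (adjusted p = 0.0809), within a range of 0.0315 to 0.111 over the settings that kept all libraries. The gene is at chr18:38998327-39078425 on the minus strand with 4 exons.

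Fgf5 encodes a ligand known for ending the growth phase of hair. Its normalized counts were 65.7, 22.4 and 12.8 in Rnf40+/+ and 33.6, 57.4 and 21.7 in Rnf40-/- libraries. Values spread widely in both groups and overlapped, with Rnf40+/+ replicate 1 the highest of all 6, and no difference passed the test (log2 fold change 0.36 ± 0.51 SE, adjusted p = 0.588 by limma, 95% interval -0.76 to 1.49). The estimate depended on single libraries, being 1.00 without Rnf40+/+ replicate 1 (adjusted p = 0.0672) and -0.14 without Rnf40+/+ replicate 3 (adjusted p = 0.818), with an adjusted p of at least 0.0672 for each of the 6 libraries left out. Fgf5 is at chr5:98683203-98706049 on the plus strand with 3 exons.

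Among the receptors, Fgfr1 and Fgfr2 fell in all 3 Rnf40-/- libraries. Fgfr1 encodes the main FGF receptor of mesenchymal cells. It had normalized counts of 7157, 7043 and 7606 in Rnf40+/+ and of 5508, 5479 and 5595 in Rnf40-/- libraries. The Rnf40-/- values were tightly grouped and all lower, at 76.04% of the Rnf40+/+ mean (log2 fold change -0.39 ± 0.06 SE, adjusted p = 2.21e-04 by limma). With 5993 to 9525 reads in the Rnf40+/+ and 5250 to 5926 in Rnf40-/- libraries, it was the most deeply measured of the 10 genes. Fgfr1 is at chr8:26629264-26686186 on the plus strand with 18 exons, and 125 exonic bases overlap the opposite-strand transcript Gm16159, which has no row in the table.

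Fgfr2 is the receptor whose epithelial splice form binds FGF7 and FGF10, and whose mesenchymal form binds other FGFs. As the table holds 1 value per gene, the splice forms were not separated. Fgfr2 had normalized counts of 714, 757 and 644 in Rnf40+/+ and of 555, 537 and 520.3 in Rnf40-/- libraries. The Rnf40-/- libraries were all lower, at 76.2% of the Rnf40+/+ mean (log2 fold change -0.39 ± 0.09 SE, adjusted p = 0.0028 by limma). The log2 ratio of Fgfr1 to Fgfr2 was 3.37 ± 0.18 in Rnf40+/+ and 3.36 ± 0.06 in Rnf40-/- MEFs (SD, n = 3; exact 2-sided permutation p = 0.9). The chosen transcript of Fgfr2 spans chr7:137307223-137409705 on the minus strand with 18 exons.

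Fgfrl1 encodes a receptor that binds FGFs but lacks the tyrosine kinase domain. Its normalized counts were 992, 1093 and 1022 in Rnf40+/+ and 863, 915 and 902 in Rnf40-/- libraries. The groups did not overlap, but the fall was small, to 86.2% (log2 fold change -0.21 ± 0.07 SE, adjusted p = 0.0294 by limma). The call was lost with upper-quartile normalization (adjusted p = 0.0784) and with the Wald test of DESeq2 (adjusted p = 0.0506), in a range of 0.0224 to 0.0784 over the settings that kept all libraries. It was also lost in limma without Rnf40+/+ replicate 2 (adjusted p = 0.0915) or without Rnf40-/- replicate 1, 2 or 3 (0.125, 0.0551 and 0.0622), and the lowest value with a library left out was 0.0283. Fgfrl1 is at chr5:109123248-109135969 on the plus strand with 7 exons.

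Fgfr3, a receptor that restrains the growth of long bones, had normalized counts of 124, 111 and 129 in Rnf40+/+ and of 121, 144 and 128 in Rnf40-/- libraries. The groups overlapped, and the difference did not pass the test (log2 fold change 0.11 ± 0.15 SE, adjusted p = 0.571 by limma, 95% interval -0.21 to 0.43). Over the libraries left out, the log2 fold change of Fgfr3 lay between 0.04 and 0.16 (adjusted p between 0.476 and 0.871 in limma). Fgfr3 is at chr5:34064373-34079712 on the plus strand with 18 exons.

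To compare levels between genes, normalized counts were divided by the length of 1 annotated transcript per gene, in kilobases. In Rnf40+/+ MEFs, Fgfr1 was highest with 1457 ± 59.7 per kilobase (SD, n = 3), followed by Fgf7 with 894 ± 93.5 and Fgfrl1 with 390.0 ± 19.5. Fgf10 (216 ± 31.7) and Fgfr2 (212 ± 17.0) did not differ beyond their spread, nor did Fgf2 (31.0 ± 3.44), Fgfr3 (28.8 ± 2.22) and Fgf18 (27.0 ± 10.3), nor Fgf5 (13.4 ± 11.3) and Fgf1 (8.51 ± 0.637). The same levels in Rnf40-/- MEFs put Fgfr1 first again with 1108 ± 12.1 per kilobase, but Fgf7 (302 ± 42.5) no longer lay above Fgfrl1 (336 ± 10.3), and these 2 did not differ beyond their spread. They were followed by Fgfr2 with 162 ± 5.18, Fgf10 with 109.8 ± 11.9, Fgf18 with 65.7 ± 1.67 and Fgfr3 with 31.1 ± 2.75. Fgf5 (15.03 ± 7.26), Fgf2 (14.1 ± 6.67) and Fgf1 (13.2 ± 1.83) were lowest and did not differ beyond their spread. The order depends on the length used. Per kilobase of coding sequence, an alternative added after the data were seen, Fgf7 (4104 ± 429) lay above Fgfr1 (2948 ± 121) and Fgf10 (1416 ± 208) above Fgfrl1 (653 ± 32.6) in Rnf40+/+ MEFs, and in Rnf40-/- MEFs Fgf7 (1385 ± 195) still lay above Fgfrl1 (563 ± 17.2). By coding length, Fgf1 (113 ± 15.6) in Rnf40-/- MEFs did not differ beyond its spread from Fgf18 (115 ± 2.92). It lay above Fgfr3 (54.6 ± 4.82), Fgf5 (47.5 ± 22.9) and Fgf2 (37.7 ± 17.9) there.

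The summed level per kilobase of the 6 ligands was 1241, 1291 and 1037 in Rnf40+/+ and 520.02, 559 and 479.5 in Rnf40-/- libraries, so that the Rnf40-/- mean was 43.7% of the Rnf40+/+ mean. The sum of the 4 receptors was 2053, 2078 and 2134 against 1625, 1639 and 1648, or 78.4%. Neither sum overlapped between genotypes (exact 2-sided permutation p = 0.1 for each, the smallest possible, and 0.175 adjusted over the 14 comparisons). Fgf7 made up 75.4%, 74.3% and 75.9% of the ligand sum in Rnf40+/+ and 55.3%, 62.5% and 55.9% in Rnf40-/- libraries. The share of Fgf10 was 18.1% ± 1.16 and 21.2% ± 2.98 (SD, n = 3), with overlapping libraries, and the difference of 3.13 points was 5.41 with coding length in place of transcript length and 5.61 without a length correction. With transcript length, the Fgf10 difference lay between 1.90 and 4.78 points over the libraries left out. Fgf18 went from 2.22% ± 0.644 to 12.7% ± 1.07 of the ligand sum, with no overlap between genotypes. This difference of 10.5 percentage points was 3.97 points with coding length and 4.15 without a length correction. Fgf1 went from 0.725% ± 0.129 to 2.54% ± 0.161 without overlap (exact p = 0.1, 0.175 adjusted), by 1.81 points that were 3.38 with coding length and 2.64 without a length correction, while Fgf2 (2.64% ± 0.506 and 2.78% ± 1.47) and Fgf5 (1.10% ± 0.885 and 2.83% ± 1.17) overlapped. The receptor sum was made up of Fgfr1 at 69.8% ± 1.75 and 67.7% ± 0.573, Fgfr2 at 10.2% ± 0.971 and 9.88% ± 0.388, Fgfrl1 at 18.7% ± 0.981 and 20.5% ± 0.521, and Fgfr3, the smallest, at 1.38% ± 0.0966 and 1.90% ± 0.163. The shares of Fgfr3 and Fgfrl1 did not overlap between genotypes (exact p = 0.1 for each, 0.175 adjusted). Those of Fgfr1 overlapped, though not with coding length, and the Fgfr2 difference of -0.29 points was -0.18 with coding length and -0.15 without a length correction, with overlap each time.

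**Figure D2:**
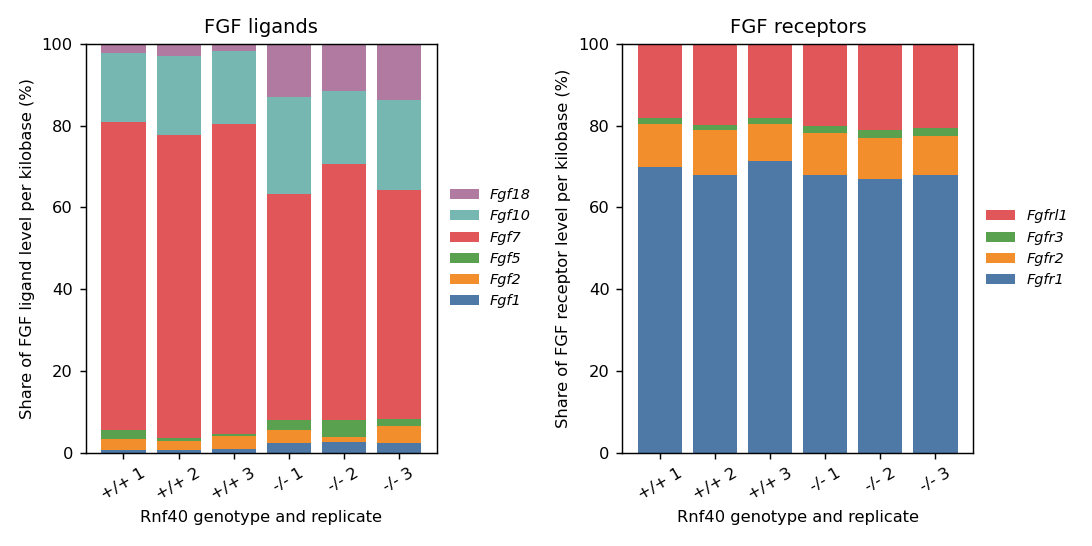
Share of each gene in the summed level per kilobase of transcript of the 6 FGF ligands (left) and the 4 FGF receptors (right), in percent, for each of the 6 libraries. Fgf7 holds 74.3% to 75.9% of the ligand sum in Rnf40+/+ libraries and 55.3% to 62.5% in Rnf40-/- libraries, while Fgfr1 holds 67.0% to 71.4% of the receptor sum over all 6 libraries.

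Of the 17 other FGF genes, 7 had enough reads to be tested, 1 was higher, and 0 were lower at an adjusted p under 0.05 in limma (1 lower at an unadjusted p under 0.05, and 0 lower in DESeq2 or edgeR), against 23.3% higher and 24.1% lower of all genes tested, and the median log2 fold change was 0.02. Fgf3, Fgf4 and Fgf6 had no read in any library. The gene that rose was Fgf9, which encodes a ligand that signals to mesenchyme, with normalized counts of 13.1, 13.3 and 3.99 in Rnf40+/+ and of 34.7, 30.3 and 35.9 in Rnf40-/- libraries. Its Rnf40-/- values were all higher (log2 fold change 1.78 ± 0.43 SE, adjusted p = 0.00484), but it had too few reads to be tested where at least 10 reads were asked for in every library. Fgf8, a patterning signal of limb and brain, was the most abundant of the group per length, with 176, 219 and 355 against 223, 321 and 339 normalized counts. These values overlapped and did not pass the test (log2 fold change 0.28 ± 0.23 SE, adjusted p = 0.345), whereas without Rnf40+/+ replicate 3, the library with the highest Fgf8 value, the log2 fold change was 0.56 and the adjusted p in limma was 0.0151, in a range of 0.0151 to 0.849 over the libraries left out. The intracellular FGF genes Fgf11, Fgf12, Fgf13 and Fgf14, whose products bind sodium channels, were tested and did not pass, with log2 fold changes from -0.86 for Fgf11 to 0.02 for Fgf13, and Fgf16 did not pass either (log2 fold change 0.72 ± 0.41 SE, adjusted p = 0.175). Fgfr4, the remaining kinase receptor, had normalized counts of at most 4.17 in any library.

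Heparan sulfate enzymes, co-receptors and carriers were mixed. Of 17 genes in this list 16 were tested, 5 were higher and 3 were lower, or 31% and 19% against 23.3% and 24.1% of all genes tested, and the median log2 fold change was 0.09. Fgfbp1, a secreted carrier that releases FGFs from the matrix, rose from 32.0 ± 4.22 to 87.9 ± 15.6 (SD, n = 3; log2 fold change 1.42 ± 0.22 SE, adjusted p = 2.49e-04). The heparan sulfate polymerase gene Ext2 and the sulfotransferase gene Hs2st1 were also higher (log2 fold change 0.41 ± 0.07 SE, adjusted p = 4.71e-04 for Ext2, and log2 fold change 0.57 ± 0.07 SE, adjusted p = 2.79e-05 for Hs2st1), as was Flrt3, whose product binds FGF receptors (log2 fold change 0.53 ± 0.11 SE, adjusted p = 0.00154). Lower were Ndst2, a gene for the sulfotransferase that starts the modification of the chain (log2 fold change -0.81 ± 0.09 SE, adjusted p = 2.82e-05), the epimerase gene Glce (log2 fold change -0.45 ± 0.09 SE, adjusted p = 0.00119) and the sulfotransferase gene Hs6st2 (log2 fold change -0.31 ± 0.07 SE, adjusted p = 0.00509). Sulf2, an extracellular sulfatase gene, had the highest mean per transcript length in Rnf40+/+ MEFs, within the spread of Sulf1, with 7292 ± 634 against 8133 ± 87.0 normalized counts. It did not pass the test (log2 fold change 0.16 ± 0.07 SE, adjusted p = 0.0846), but did without Rnf40+/+ replicate 3 (0.21, adjusted p = 0.0212, range 0.0212 to 0.330 over the libraries left out) and with upper-quartile normalization (0.21, adjusted p = 0.0254, range 0.0254 to 0.113 over the settings with all libraries).

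All 20 genes for receptor adaptors and the RAS-ERK cascade were tested, of which 7 were higher and 4 were lower, or 35% and 20% against 23.3% and 24.1% of all genes tested, with a median log2 fold change of 0.12. The docking protein genes Frs2 and Gab1 rose (log2 fold change 0.42 ± 0.07 SE, adjusted p = 4.55e-04 for Frs2, and log2 fold change 0.82 ± 0.08 SE, adjusted p = 4.67e-06 for Gab1), as did Ptpn11, which encodes the phosphatase SHP2 (log2 fold change 0.54 ± 0.06 SE, adjusted p = 1.92e-05), and the RAF kinase gene Braf (log2 fold change 0.69 ± 0.08 SE, adjusted p = 3.20e-05). Nras, a RAS gene, fell from 3018 ± 165 to 1416 ± 38.6 normalized counts (SD, n = 3; log2 fold change -1.09 ± 0.07 SE, adjusted p = 1.65e-07). The adaptor gene Shc1, the most abundant of the list per transcript length in Rnf40+/+ MEFs, fell as well (log2 fold change -0.77 ± 0.06 SE, adjusted p = 1.34e-06), and so did the kinase genes Map2k2 for MEK2 (log2 fold change -0.37 ± 0.10 SE, adjusted p = 0.00868) and Mapk3 for ERK1 (log2 fold change -0.29 ± 0.07 SE, adjusted p = 0.00584). Map2k2 no longer passed without Rnf40-/- replicate 2 (-0.30, adjusted p = 0.0525, range 0.00309 to 0.0525 over the libraries left out). Hras did not pass the test, with a log2 fold change of -0.07.

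Genes that FGF and ERK signals induce include the feedback inhibitors of the pathway. All 14 of the list were tested, 7 were lower (Spry1, Spry4, Spred1, Spred3, Dusp5, Etv4 and Etv5) and 2 were higher (Spred2 and Dusp6), against 24.1% lower and 23.3% higher of all genes tested, and the median log2 fold change was -0.37. Spry1, a Sprouty inhibitor gene, had normalized counts of 1732, 1873 and 2051 in Rnf40+/+ and of 1072, 1023 and 999.9 in Rnf40-/- libraries, all lower in the latter (log2 fold change -0.87 ± 0.08 SE, adjusted p = 2.99e-06). Etv4, a transcription factor gene of the ETS family, had 1003, 994 and 851 against 607, 593 and 563 (log2 fold change -0.69 ± 0.09 SE, adjusted p = 4.59e-05). Both Dusp5 and Spred3 fell too, the first encoding an ERK phosphatase of the nucleus and the second an inhibitor of RAF activation (log2 fold change -0.60 ± 0.13 SE, adjusted p = 0.00237 for Dusp5, and log2 fold change -0.59 ± 0.10 SE, adjusted p = 3.21e-04 for Spred3). In contrast, Dusp6, the gene for the ERK phosphatase of the cytoplasm, had 1767, 1715 and 1520.5 against 2142, 2233 and 2132 normalized counts, all higher in Rnf40-/- libraries (log2 fold change 0.38 ± 0.07 SE, adjusted p = 9.79e-04). Spred2 was higher as well (log2 fold change 0.39 ± 0.11 SE, adjusted p = 0.0134), a call lost without Rnf40-/- replicate 1 (0.34, adjusted p = 0.0669, range 0.00593 to 0.0669 over the libraries left out). The most abundant gene per length, Spry2, did not pass the test (log2 fold change -0.18 ± 0.07 SE, adjusted p = 0.0713), but passed it without Rnf40+/+ replicate 3 (-0.25, adjusted p = 0.00677, range 0.00677 to 0.208 over the libraries left out).

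**Figure D3:**
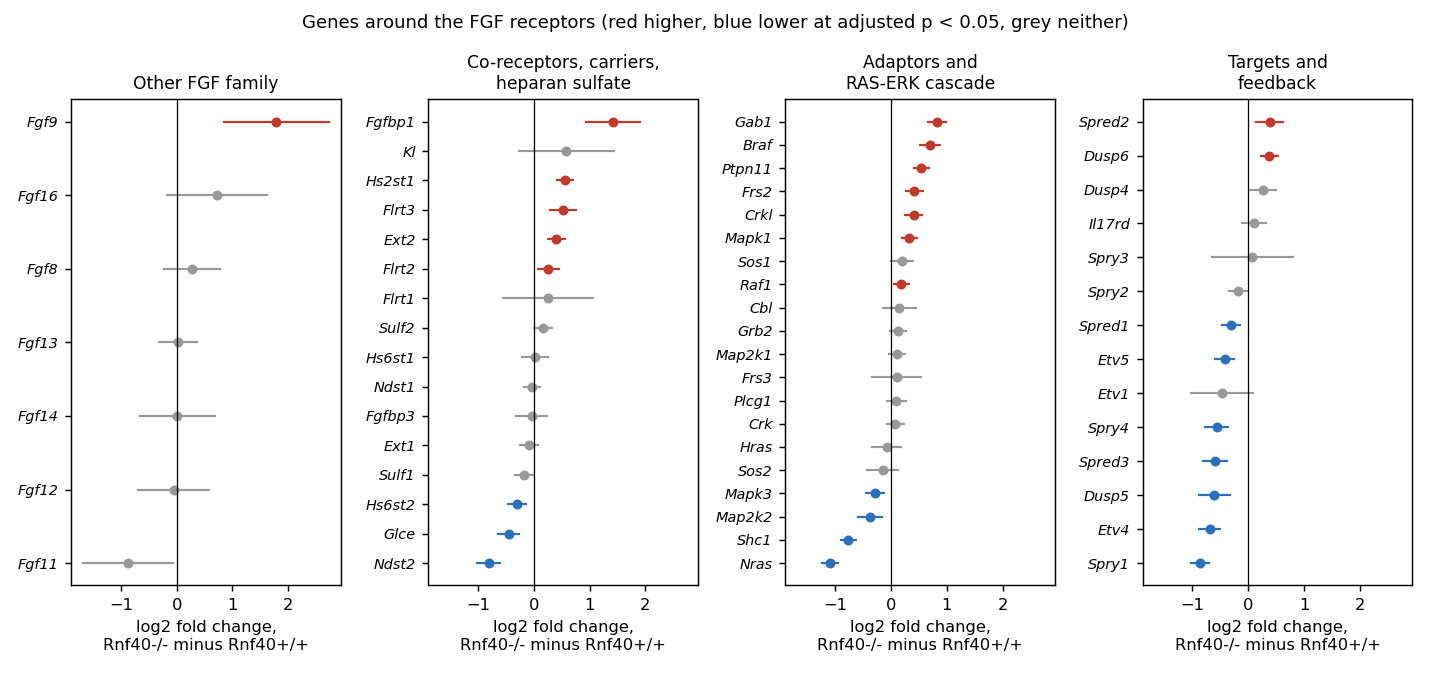
Log2 fold change (Rnf40-/- minus Rnf40+/+, points) with its 95% interval (bars) from limma for the tested genes of 4 lists around the FGF receptors, with 3 libraries per group. Red genes were higher and blue genes lower at an adjusted p under 0.05, and grey genes did not pass. The list of targets and feedback genes has 7 blue and 2 red points, and the other lists have points of both colours or a single red one.

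The genes most like Fgf7 and Fgf18 over the 6 libraries were looked up by Pearson correlation of log2(normalized count + 1). Nearest to Fgf7 were Prepl (r = 0.999), Prr11 (r = 0.999) and Cdca7 (r = 0.999), all lower in Rnf40-/- MEFs, and 131 genes had an r above 0.99. Nearest to Fgf18 were Gabpa (r = 0.999), mKIAA0137 (r = 0.997) and Rnf20 (r = 0.997), all higher in Rnf40-/- MEFs, and 39 genes had an r above 0.99. The 6 libraries fall into the 2 genotypes, which these correlations share, so they describe these libraries only.

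Promoters are shown for the 4 ligand genes whose RNA differed most between genotypes, 3 lower and 1 higher. RefSeq promoter sequences of GRCm38.p6, another assembly than that of the gene positions, were matched by symbol for 8 of the 10 genes, with 9 promoters. Fgfr1 had no entry, and Fgf1 was not used here. The 250 bases before the start were searched on both strands for a TATA box (TATAAA), a GC box (GGGCGG) and an AP-1 motif (TGANTCA), which 12.4%, 32.7% and 6.75% of 32851 promoters hold. Capitals mark the matches, all of them GC boxes, which read CCGCCC on the other strand. The plus strand is printed for Fgf7 (chr2:126034408-126034657), Fgf10 (chr13:118714449-118714698) and Fgf2 (chr3:37348403-37348652), and the minus strand for Fgf18 (chr11:33147401-33147650), each 5′ to 3′.
Fgf7: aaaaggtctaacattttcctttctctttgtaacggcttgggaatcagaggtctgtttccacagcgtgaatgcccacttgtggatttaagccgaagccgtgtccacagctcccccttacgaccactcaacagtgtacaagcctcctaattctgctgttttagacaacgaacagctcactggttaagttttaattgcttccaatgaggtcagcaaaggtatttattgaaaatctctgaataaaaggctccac
Fgf10: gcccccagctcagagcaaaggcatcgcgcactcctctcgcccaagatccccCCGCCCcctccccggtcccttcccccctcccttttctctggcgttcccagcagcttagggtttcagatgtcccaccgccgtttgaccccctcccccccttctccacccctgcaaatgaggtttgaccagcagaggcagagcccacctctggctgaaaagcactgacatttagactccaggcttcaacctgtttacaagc
Fgf2: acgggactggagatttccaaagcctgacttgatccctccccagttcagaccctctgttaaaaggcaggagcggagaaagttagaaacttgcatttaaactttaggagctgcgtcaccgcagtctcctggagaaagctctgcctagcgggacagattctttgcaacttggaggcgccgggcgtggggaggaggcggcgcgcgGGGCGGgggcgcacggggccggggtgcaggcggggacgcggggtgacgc
Fgf18: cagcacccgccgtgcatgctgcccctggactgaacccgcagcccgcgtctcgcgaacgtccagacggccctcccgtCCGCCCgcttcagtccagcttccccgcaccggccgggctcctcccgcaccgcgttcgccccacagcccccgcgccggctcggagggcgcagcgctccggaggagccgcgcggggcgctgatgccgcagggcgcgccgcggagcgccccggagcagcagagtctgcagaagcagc

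These promoters differed widely in base composition. The Fgf7 window had a GC content of 43.6% and 6 CpG dinucleotides with no match to any of the 3 motifs, against a median GC content of 52.4% over all promoters. Fgf10 had 61.2% and 8 CpG, Fgf2 had 62.4% and 20 CpG, and Fgf18 had 77.2% and 37 CpG, each with 1 GC box. Of the promoters not printed, that of Fgf5 held 1 GC box, those of Fgfr3 held 3 and 2, that of Fgfrl1 held 4 and that of Fgfr2 held none, and no TATA box or AP-1 match was found in any of the 9. A match is a string of letters and not a measured site.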

How the data were processed

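RNA-seq of 3 Rnf40+/+ and 3 Rnf40-/- MEF libraries was analysed from the deposited table, made from libraries of a strand-specific kit. The authors mapped reads to mm9 and normalized with DESeq, so each deposited signal value is a number of reads divided by a size factor. The submitters' processing notes name Bowtie2 (version 2.1.0) and DESeq (version 1.14.0), and the counting tool and its use of strand are not given in the sources used here. Dividing by the value of a single read gave whole numbers for 100% of positive values in each library (tolerance 0.01), and these are the recovered reads.

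Genes passing filterByExpr of edgeR (version 4.0.16) on these reads, 16378 in all, were tested with limma (version 3.58.1; lmFit, eBayes with a trend, 2-sided) on log2(normalized count + 1), with genotype alone in the model. P-values were adjusted over all of them by the method of Benjamini and Hochberg. The added 1 understates the fold change of low genes. Errors of fold changes are standard errors, and of levels SDs over 3 libraries. Shares, sums and ratios were compared by an exact permutation test (scipy, version 1.17.1). Lengths and positions are those of the protein-coding transcript with the longest coding sequence in GENCODE vM1 (mm9). No 2 libraries were duplicates, since the chi-square per gene between libraries of a group was at least 5.04.

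Named were all FGF members, Rnf40, Rnf20, from each other list up to 4 genes per direction with the largest absolute log2 fold change among those past the test and the gene most abundant per transcript length in Rnf40+/+ MEFs, the 3 genes most correlated with the member that rose and with the member that fell most, and opposite-strand transcripts over a member. Genes named outside this rule and the marker lists were chosen after their values were seen. Members and lists were chosen with earlier results of these data known. Alternatives were DESeq2 size factors (version 1.42.0), TMM and upper-quartile factors, the DESeq2 Wald and edgeR quasi-likelihood tests on the recovered reads, other gene filters (none, a mean above 15, or 10 or more reads per library), pseudocounts of 0.1 and 10, a replicate block, a minimum log2 fold change of 1, each library left out, and coding or no length. R (version 4.3.3) and Python (version 3.11.15) were used. The fits were tested on simulated data. A gene of the lists is not reported here. ChIP-seq was not analysed here.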

Additional observations from a re-analysis of the deposited data

How the results depend on the processing

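Fgf7, Fgf10, Fgf18, Fgfr1 and Fgfr2 kept their direction and their call under every alternative run, libraries left out included, except the minimum log2 fold change of 1, which Fgf10, Fgfr1 and Fgfr2 did not reach. With the Wald test of DESeq2, with no gene filter and with the replicate block, 1 FGF member was higher in place of 2, as was the case with each library left out (1 to 1), since Fgf1 no longer passed. The members lower were 4 to 6 with a library left out. With a log2 fold change beyond 1, the members counted were 1 higher and 2 lower, the co-receptor list 1 higher and 0 lower, the adaptor and cascade list 0 higher and 1 lower, the target and feedback list 0 higher and 0 lower, and all genes 840 higher and 937 lower, fewer by construction. Of the other FGF genes 0 were higher where at least 10 reads in every library were asked for, which left Fgf9 and Fgf2 untested, and 1 to 2 with a library left out. The target and feedback genes higher were 1 to 3 with a library left out. The log2 fold change of Fgf5, not called in any setting, reversed to -0.14 without Rnf40+/+ replicate 3 and lay between -0.14 and 1.00 over the libraries left out, and the cause was not tested. The share of Fgf18 differed by 3.97 points with coding length and by 4.15 without length, through the lengths themselves. With coding length, an alternative added after the data were seen, the log2 ratio of Fgf7 to Fgfr1 per kilobase in Rnf40+/+ MEFs turned from -0.71 to 0.47, and the summed levels in Rnf40-/- MEFs were 42.0% of those in Rnf40+/+ MEFs for ligands and 78.2% for receptors. The share of Fgfr2, not called, differed by -0.29 points, and by -0.83 to 0.10 over the libraries left out. Its change of sign lay within 1 SD and was labelled as the same, a rule set after the results were seen. Of the fibroblast markers Vim lost its call with 5 of the libraries left out, upper-quartile factors, no gene filter, 10 or more reads per library, a pseudocount of 10 and the replicate block, and Twist1 with upper-quartile factors and 2 of the libraries left out. Another scaling moved the median of all genes by less than 0.1.

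Replicate numbers are shared between genotypes, but libraries of the same number did not deviate together (r = 0.012, 0.017 and 0.021), and no library correlated best with its own number. With the replicate block 1 member was higher and Spry2 passed the test (-0.18, adjusted p = 0.0468 in limma, range 0.0468 to 0.190 over the settings with all libraries), while all genes tested had 4021 higher and 4196 lower calls. Low read numbers limit Fgf1, Fgf2, Fgf5, Fgf9 and Fgf18.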

Other observations

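Rnf40+/+ replicate 1 held the highest normalized count of several unrelated genes of the lists. Krt8 had 58.5 there against at most 9.58 in any other library, Snap25 had 39.4 against at most 9.18, Tek had 115 against at most 73.1, and the ETS factor gene Etv1 had 472 against at most 248. Fgf5 was also highest in that library, at 65.7 against at most 57.4.

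Fgf21, which encodes a metabolic hormone of the family, had normalized counts of 2.39, 1.02 and 13.6 in the Rnf40+/+ and 1.02, 0 and 0 in the Rnf40-/- libraries. Its reads were too few to be tested. These genes were chosen after their values were seen.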
